A study of Mus musculus with 22 samples.

Results

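The Hox genes encode homeodomain transcription factors that lie in 4 clusters, a to d, and carry paralogue numbers up to 13 by their place in the cluster. The members were all array probe sets whose gene symbol is Hox, a cluster letter and a paralogue number. By this rule 33 Hox genes were found among the 19505 named genes of the array, each with 1 probe set. They were 8 of cluster a on chromosome 6, 9 of cluster b on chromosome 11, 9 of cluster c on chromosome 15 and 7 of cluster d on chromosome 2. Other Hox genes were not analysed here.

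RNA was measured in 22 colon tumours that the carcinogen azoxymethane had induced in male FVB/N mice, an inbred strain. The 5 formerly obese mice were moved from a high-fat to a low-fat diet, and the 6 obese sulindac mice stayed on the high-fat diet and received sulindac, an inhibitor of the cyclooxygenases. The 5 obese mice ate the high-fat diet (60% of kcal as fat) without the drug, and the 6 control mice ate the low-fat diet (10%). No sample of colon without tumour was analysed here, and the labels do not place a tumour along the colon. Mice are called by the number in the sample titles, and 1 obese sulindac mouse is titled Mouse_X. Each tumour counts as a replicate.

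In the embryo, genes of a cluster are switched on in the order of their paralogue numbers along the axis from head to tail, and high numbers mark the hindgut and its surroundings. Part of this pattern persists in the adult gut, where it differs along the intestine and between epithelium and mesenchyme. Hoxa13 and Hoxd13 are needed for the formation of the hindgut and its end, and Hoxb13 is expressed in the distal colon and the prostate.

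The promoter windows of the 4 neighbouring genes Hoxd10 to Hoxd13 are shown because these genes varied most between the tumours and moved together. The sequences are from RefSeq, build GRCm38.p6, plus strand, and span 250 bases before to 50 bases after a gene start. Hoxd13 is at chr2:74667975-74668274, Hoxd12 at chr2:74674763-74675062, Hoxd11 at chr2:74679308-74679607 (the first of 2 starts in the table) and Hoxd10 at chr2:74691641-74691940. Capitals mark TTTAT on either strand (ATAAA on the strand shown), a core that CDX proteins and HOX proteins of high paralogue number are known to bind.
Hoxd13: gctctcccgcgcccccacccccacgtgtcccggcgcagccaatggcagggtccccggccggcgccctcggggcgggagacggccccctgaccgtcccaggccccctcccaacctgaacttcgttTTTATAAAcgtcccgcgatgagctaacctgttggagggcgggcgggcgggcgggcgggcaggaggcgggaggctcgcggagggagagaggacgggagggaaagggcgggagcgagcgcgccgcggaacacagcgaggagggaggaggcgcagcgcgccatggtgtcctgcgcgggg
Hoxd12: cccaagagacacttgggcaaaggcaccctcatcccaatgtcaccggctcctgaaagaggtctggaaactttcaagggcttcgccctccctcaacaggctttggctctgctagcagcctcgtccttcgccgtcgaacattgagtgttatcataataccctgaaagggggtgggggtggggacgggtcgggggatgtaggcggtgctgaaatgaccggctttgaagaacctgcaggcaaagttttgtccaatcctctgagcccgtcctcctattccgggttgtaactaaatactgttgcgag
Hoxd11: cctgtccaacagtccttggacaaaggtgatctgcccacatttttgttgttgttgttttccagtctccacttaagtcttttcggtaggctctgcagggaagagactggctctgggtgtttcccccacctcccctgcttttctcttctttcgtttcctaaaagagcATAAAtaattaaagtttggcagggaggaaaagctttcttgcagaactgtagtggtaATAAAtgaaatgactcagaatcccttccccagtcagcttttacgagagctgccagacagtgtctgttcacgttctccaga
Hoxd10: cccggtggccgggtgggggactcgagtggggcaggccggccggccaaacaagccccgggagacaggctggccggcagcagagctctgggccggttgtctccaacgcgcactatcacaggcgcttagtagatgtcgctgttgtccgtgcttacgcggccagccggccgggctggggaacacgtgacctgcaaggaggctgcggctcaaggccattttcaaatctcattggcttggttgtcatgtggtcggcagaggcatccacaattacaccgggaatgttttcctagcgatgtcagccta

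The Hoxd13 window holds both forms of the motif, overlapping in a run of TTTATAAA, and the Hoxd11 window shown holds 2 copies of ATAAA. The window of the other Hoxd11 start, not shown, holds 0 copies. The Hoxd12 and Hoxd10 windows hold 0 copies. The table has windows for 17 of the 33 genes, and 6 of their 19 windows (31.6%) hold the motif, against 40.0% of all 32851 windows in the table. The Hox windows were richer in CG dinucleotides, with a median of 20 per window against 7 over all windows. These are matches of letters and show no binding.

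Epithelial markers had signal in every tumour. Epcam lay between 16.67 and 17.43 on the log2 scale, Cdh1 between 17.29 and 17.92 and Vil1, a gene of the intestinal brush border, between 12.11 and 14.42. Of the other colon epithelium markers, Krt20 and Cdx2 varied most, from 8.74 to 14.58 and from 5.92 to 13.64. For a level to compare with, 1414 probe sets of olfactory and vomeronasal receptors, which a colon tumour is not known to express, served as a dim reference. Their 95th percentile lay between 5.13 and 5.54 on the 22 arrays. Probe sets differ in how strongly they hybridise, so the order of levels between genes is not an order of transcript amounts.

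The clusters differed in level (see the map of levels by tumour). Cluster c lay at the floor, with mean levels between 4.09 and 5.11, and 8 of its 9 genes exceeded the dim reference in 0 of 22 tumours. Its exception was Hoxc9, above it in 8 tumours. All 8 genes of cluster a exceeded the reference in 12 or more tumours, as did 6 of 9 in cluster b and 5 of 7 in cluster d. In all, 9 genes exceeded it in every tumour, namely Hoxa2, Hoxa3, Hoxa4, Hoxa5, Hoxa10, Hoxb3, Hoxb7, Hoxb9 and Hoxb13. The highest mean levels were 12.86 for Hoxa10, 12.63 for Hoxd13, 10.76 for Hoxd11 and 10.18 for Hoxb13. The genes with the lowest paralogue numbers in clusters b and d were dim, with mean levels of 4.26 for Hoxb1 and 4.71 for Hoxd1, each above the reference in 0 of 22 tumours. In the RefSeq table the spans of Hoxd10 and Hoxd11 overlap, as does that of Hoxa3 with Hoxa4, Hoxa5 and Hoxa6, and where their probes lie was not analysed here.

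**Figure D1:**
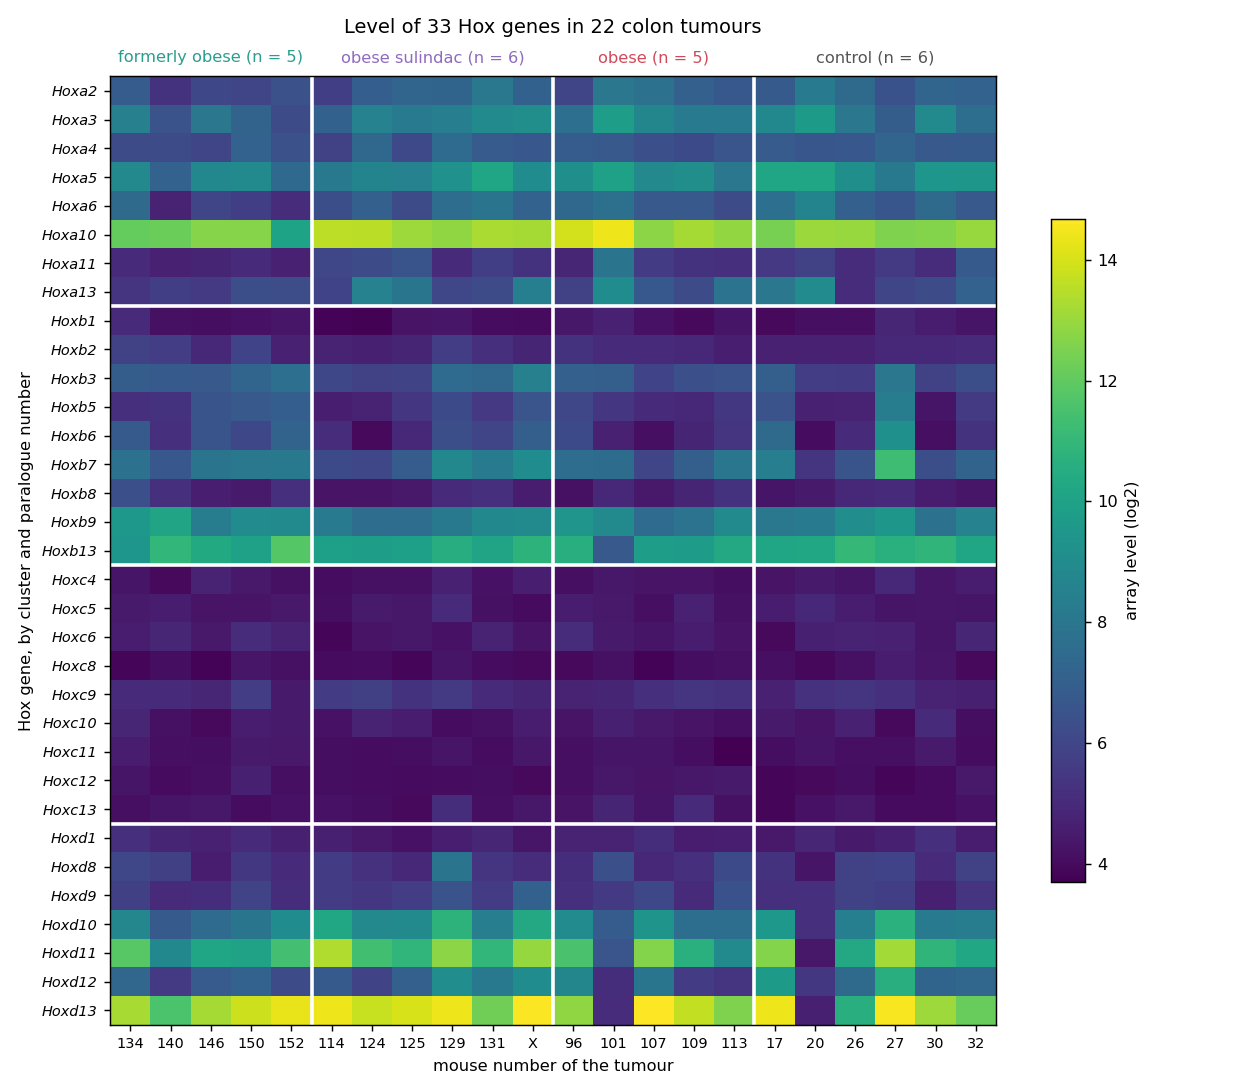
Array level (log2, colour) of each of the 33 Hox genes (down, by cluster and paralogue number) in each of the 22 tumours (across, by group and mouse number). Cluster c is dark throughout, with mean levels of 4.09 to 5.11, and Hoxd10, Hoxd11, Hoxd12 and Hoxd13 are low in obese Mouse_101 and control Mouse_20.

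Hox genes varied widely from tumour to tumour. Over the 22 tumours, 17 of the 33 genes were in the top 10% of all 22203 probe sets by SD, and 0 of those 17 belonged to cluster c. Hoxd13 had an SD of 2.73 on the log2 scale, and 10 probe sets on the array had a larger one. It was followed by Hoxd11 with an SD of 2.15, Hoxd12 with 1.49, Hoxd10 with 1.35, Hoxb6 with 1.32 and Hoxb7 with 1.29, whereas the median probe set had an SD of 0.35. Most of this spread lay between tumours of the same group: a median of 19.49% of a Hox gene's variance lay between the 4 groups, against 12.8% over all probe sets.

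Obese Mouse_101 and control Mouse_20 carried tumours nearly devoid of Hoxd13 signal. Its level was 5.09 in obese Mouse_101 and 4.65 in control Mouse_20, both below the dim reference, whereas the other 20 tumours lay between 10.59 and 14.68. Hoxd11 was at 6.60 and 4.40 in the same 2 tumours, and the next lowest tumour was at 8.83. Hoxd10 was at 6.89 and 5.22, with formerly obese Mouse_140 between them at 6.79. Hoxd12 was at 5.11 and 5.47, with obese Mouse_113 between them at 5.40 and Mouse_140 at 5.56, so low levels of these genes were not particular to the 2 tumours. These 2 mice were of different groups and ate different diets, and neither received sulindac or a change of diet. The lowest Hoxd13 level was 12.30 in obese sulindac and 11.55 in formerly obese tumours. A part of the regimen in the low signal was not tested. Because the deposited levels come from whole tumours, fewer cells of a type and less RNA per cell cannot be told apart.

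Outside Hoxd10 to Hoxd13, some genes of these 2 tumours were high and others low. Hoxa13 was highest there of all 22 tumours, at 9.05 in obese Mouse_101 and 9.0 in control Mouse_20. Obese Mouse_101 had the highest Hoxa10, at 14.40, the highest Hoxa3, at 9.82, and the highest Hoxa11, at 7.90. Its Hoxb13 level of 6.75 was the lowest, with the next tumour at 9.45. Control Mouse_20 kept a Hoxb13 level of 10.22, in the range of the other control tumours, and had the highest Hoxa6 level, at 8.63. It also had the lowest Hoxb7 (5.38) and Hoxd8 (4.30) of all 22 tumours and the lowest mean level over the 33 genes, 5.97. Obese Mouse_101 was at 7.59 for Hoxb7 and 6.36 for Hoxd8, so the 2 tumours differed in these genes and in Hoxb13.

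Both tumours had high Cdx2, a homeobox gene that specifies intestinal epithelium and acts upstream of Hox genes in the embryo. Cdx2 was at 12.75 in obese Mouse_101 and 13.64 in control Mouse_20, against 5.92 to 12.87 in the other 20. The summed level of the 8 colon epithelium markers, taken as their mean, was 15.4 and 15.5, and spanned 13.8 to 15.7 in the other 20 tumours. Cdx2 is itself a member of that list, so its high level raises the mean in these 2 tumours. Among the other members, Epcam was at 17.19 in obese Mouse_101 and 17.37 in control Mouse_20, against 16.67 to 17.43 in the other 20. Cdh1 was at 17.62 and 17.76, against 17.29 to 17.92, and Krt18 at 15.23 and 14.93, against 14.63 to 15.49. Vil1 was at 13.62 and 14.42, against 12.11 to 14.36, so control Mouse_20 had the highest level. Krt8 was at 16.23 and 16.57, against 14.84 to 16.86. Krt20 was at 14.11 and 12.42, against 8.74 to 14.58, and Cdh17 at 16.75 and 16.50, against 15.77 to 17.09. The 6 fibroblast markers averaged 12.03 and 11.62, against 10.2 to 12.5 in the other 20. The 5 markers of squamous and anal epithelium averaged 6.03 and 5.96, against 5.45 to 7.77. Of these, Krt14 and Krt13 exceeded the dim reference in 22 of 22 tumours, Krt4 in 21, Trp63 in 4 and Krt5 in 0. The part of these values in the low Hoxd13 was not tested.

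**Figure D2:**
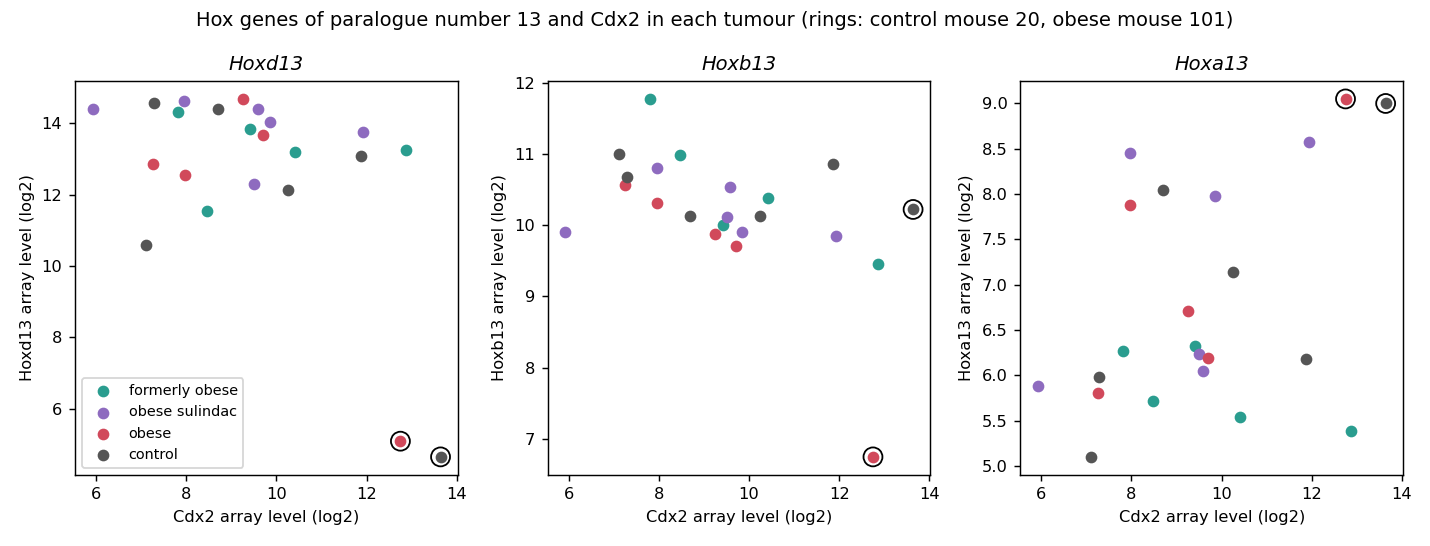
Array level (log2) of Hoxd13, Hoxb13 and Hoxa13 (vertical) against that of Cdx2 (horizontal), each point a tumour, coloured by group. The ringed obese Mouse_101 and control Mouse_20 lie at 5.09 and 4.65 for Hoxd13 and at 12.75 and 13.64 for Cdx2.

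Relations to Cdx2 were computed for the 8 genes that had the largest SD or paralogue number 13 (without Hoxc13, which was dim), on levels with group means removed and with permutation within groups. These relations were chosen after seeing the data, and adjusting p over the 8 does not cover that choice. For Hoxb13 over the 22 tumours, Pearson's r was -0.61 (permutation p = 0.0021, adjusted p over the 8 relations 0.017) and Spearman's rho was -0.59 (permutation p = 0.0064, adjusted p = 0.051). Without the 2 tumours farthest from the median of Cdx2, r was -0.75. Those are control Mouse_20 and obese sulindac Mouse_114, so obese Mouse_101, the tumour lowest in Hoxb13, was kept there. Without obese Mouse_101 and control Mouse_20, r was -0.53 and rho was -0.57 (permutation p of 0.029 and 0.022, adjusted p of 0.23 and 0.18). For Hoxa13, r was 0.51 over the 22 tumours (permutation p = 0.034, adjusted p = 0.054) with a rho of 0.48 (permutation p = 0.045, adjusted p = 0.090), and r was 0.29 without the 2 tumours farthest in Cdx2. It was 0.22 without obese Mouse_101 and control Mouse_20.

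For Hoxd10, r was -0.58 and rho was -0.50 over the 22 tumours (permutation p of 0.013 and 0.032, adjusted p of 0.042 and 0.090), and r was -0.39 without the 2 tumours farthest in Cdx2. For Hoxd12, r was -0.44 and rho was -0.36 (permutation p of 0.070 and 0.14, adjusted p of 0.080 and 0.16), and r was -0.42 without the 2 farthest. For Hoxb6, r was -0.48 and rho was -0.40 (permutation p of 0.053 and 0.10, adjusted p of 0.070 and 0.14), and r was -0.48 without the 2 farthest. For Hoxb7, r was -0.35 and rho was -0.31 (permutation p of 0.18 and 0.21, adjusted p of 0.18 and 0.21), and r was -0.38 without the 2 farthest. For Hoxd13 and Hoxd11, obese Mouse_101 and control Mouse_20 form a cluster of their own and no r over all tumours is given. Over the other 20 tumours Hoxd13 had an r of -0.01 with Cdx2 and a rho of -0.11 (permutation p of 0.97 and 0.68), and no relation to Cdx2 was detectable at this number of samples. Hoxd10, Hoxd11 and Hoxd12 had an r of -0.32, -0.17 and -0.21 there, and Hoxb6 and Hoxb7 of -0.40 and -0.28. When the 2 of these 20 farthest in Cdx2 were left out too, r ranged from -0.66 (Hoxb6) to 0.16 (Hoxa13) over the 8 genes. It was -0.57 for Hoxb7 and -0.56 for Hoxb13. The smallest adjusted p of Pearson's r over these 20 tumours was 0.23.

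By the median over all pairs, genes of the same cluster moved together more than genes of different clusters. This was uneven, and pairs of clusters b and d were an exception. The 21 genes whose mean exceeded the reference were compared with group means removed. The median r was 0.33 for the 58 pairs of the same cluster (range -0.09 to 0.94) and -0.10 for pairs of different clusters. For the 36 pairs of clusters b and d it was 0.38, also without obese Mouse_101 and control Mouse_20. For the 48 pairs of clusters a and b it was -0.16. Within cluster a it was 0.28, and 0.12 without obese Mouse_101 and control Mouse_20. These correlations share arrays and are a description over 22 tumours. The blocks of neighbouring genes named here were chosen after seeing the data. The tightest of them was Hoxb3, Hoxb5, Hoxb6 and Hoxb7, whose 6 pairs had r between 0.84 and 0.94. Hoxd10 to Hoxd13 followed, with r between 0.62 and 0.93 and a median of 0.80, which was 0.73 without obese Mouse_101 and control Mouse_20. The 10 pairs of Hoxa2, Hoxa3, Hoxa4, Hoxa5 and Hoxa6 had a median of 0.59, with r between 0.01 and 0.81. The 11 pairs of genes with the same paralogue number in different clusters had a median of -0.14, which was 0.12 without control Mouse_27 and control Mouse_20.

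The blocks of clusters b and d were also related. The 16 pairs between Hoxb3 to Hoxb7 and Hoxd10 to Hoxd13 had a median r of 0.53, and it was 0.53 without the 2 tumours low in Hoxd13. Without control Mouse_27 and control Mouse_20, which had the highest and lowest mean over the Hox genes, it was 0.28. Control Mouse_27 had the highest levels of Hoxb5 (8.30), Hoxb6 (9.19), Hoxb7 (11.25) and Hoxd12 (10.56). The next highest levels of Hoxb7 and Hoxb6 were 9.04 and 7.48. Pairs of clusters a and d had a median r of -0.24 over 48 pairs, which was -0.03 without the 2 tumours low in Hoxd13. The lowest r of any pair was -0.84, between Hoxa11 and Hoxb13, and it was -0.58 without them.

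**Figure D3:**
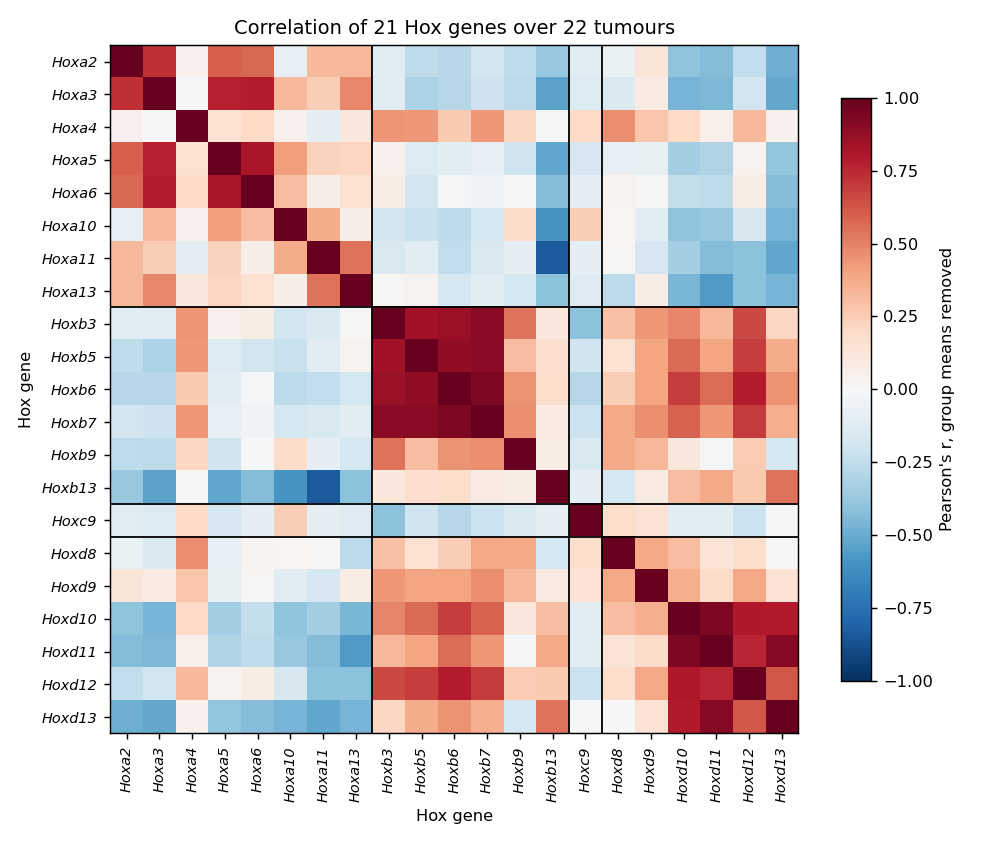
Pearson's r (colour) over the 22 tumours, with group means removed, between the 21 Hox genes whose mean exceeded the dim reference, ordered by cluster and paralogue number. Hoxb3, Hoxb5, Hoxb6 and Hoxb7 form a block with r of 0.84 to 0.94, and Hoxd10 to Hoxd13 one with 0.62 to 0.93.

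Outside the clusters, the genes most like Hoxd13 across tumours were Ift27, Psmf1, Paics, Ciao1 and Scfd1, with r between 0.74 and 0.82 over the 22 tumours, group means removed. The most opposite were Nell1, Fmo6, Hsfy2, Cyp1b1 and Pdzd3, with r between -0.79 and -0.74. These 5 genes were dim, with mean levels of 4.27 to 4.78, below the 95th percentile of the dim reference means, 5.07. Ift27, a part of the transport machinery of cilia, was at 6.43 in obese Mouse_101 and 6.14 in control Mouse_20, against 6.75 to 7.59 in the other 20. Its r was 0.10 without those 2 tumours. Of the 10 genes, Psmf1, an inhibitor of the proteasome, and Fmo6 had the largest r without them, 0.51 and -0.56. The level of Fmo6 was at most 5.05, below the dim reference in every tumour.

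The comparison of formerly obese with obese mice asks how tumours differ after the return to a low-fat diet. All 8 genes of cluster a had a lower mean in formerly obese mice, by up to 1.48 on the log2 scale, and all 9 of cluster b had a higher one, by up to 1.32. The median difference was -1.08 in cluster a, 0.52 in cluster b, 0.01 in cluster c and 0.05 in cluster d, against 0.00 over all probe sets. None of the 33 passed the test (limma, adjusted p under 0.05), as 0% of the 22203 probe sets did. At an unadjusted p under 0.05 there were 5 Hox genes (15.2%), against 5.69% of all probe sets. All 5 were lower and in cluster a, namely Hoxa2, Hoxa3, Hoxa6, Hoxa10 and Hoxa11, whereas 2.91% of all probe sets were lower at that threshold. Without obese Mouse_101 and control Mouse_20 the count was 2 of 33, against 1262 of all 22203 probe sets, so the Hox share was then close to that of all probe sets.

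Hoxa10, a gene of the posterior part of cluster a, differed most. Its level was 12.08, 12.22, 12.69, 12.68 and 10.06 in formerly obese mice, against 13.91, 14.40, 12.75, 13.18 and 12.89 in obese mice. Every formerly obese tumour lay below every obese tumour, the closest pair being 12.69 and 12.75, and Mouse_152 lay far below the other formerly obese mice. The mean was 11.95 ± 1.09 in formerly obese and 13.43 ± 0.70 in obese mice (SD, n = 5 each), a difference of -1.48 ± 0.38 (SE, limma, 95% interval -2.28 to -0.68, adjusted p = 0.87). The exact permutation test gave p = 0.0079 unadjusted, the smallest that 5 against 5 allows. Groups that did not overlap were found for 1 of 33 Hox genes and 0.878% of all probe sets. Without Mouse_152 the difference was -1.01.

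By unadjusted p the next genes were Hoxa6 and Hoxa3 of the anterior and middle part of the cluster. Hoxa6 was at 7.51, 4.79, 5.98, 5.73 and 5.09 in formerly obese mice, against 7.40, 7.74, 6.77, 6.75 and 6.26 in obese mice. Of the formerly obese tumours 4 lay below all obese ones, and Mouse_134 lay among them. The difference was -1.16 ± 0.46 (SE, limma, adjusted p = 0.87). Hoxa3 was at 8.48, 6.51, 8.04, 7.20 and 6.20, against 7.69, 9.82, 8.73, 8.25 and 8.19, a difference of -1.25 ± 0.52. The groups overlapped for Hoxa3 as well. Hoxa13 was at 5.39, 5.72, 5.54, 6.32 and 6.27 in formerly obese mice, a narrow range near the dim reference, against 5.80, 9.05, 6.71, 6.19 and 7.88 in obese mice. Its difference was -1.28 ± 0.71 (SE, limma, adjusted p = 0.88), and it was -0.80 without obese Mouse_101.

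In cluster b the largest differences were those of Hoxb6 and Hoxb13. Hoxb6 was at 6.80, 5.16, 6.55, 6.09 and 7.20 in formerly obese mice, against 6.15, 4.69, 4.16, 4.82 and 5.39 in obese mice, a difference of 1.32 ± 0.78 (SE, limma, adjusted p = 0.88). Of the formerly obese tumours 3 lay above all obese ones. Hoxb13 was at 9.45, 10.98, 10.38, 10.00 and 11.77, against 10.56, 6.75, 9.87, 9.71 and 10.31, a difference of 1.08 ± 0.52 (adjusted p = 0.88). Obese Mouse_101 decides much of this value, which was 0.40 without it. Hoxb2, near the dim reference, differed by 0.42 ± 0.23, with 5.41 ± 0.55 in formerly obese and 4.99 ± 0.26 in obese mice (SD, n = 5 each).

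The direction over the clusters did not rest on a single tumour. With each of the 10 mice left out in turn, all 8 genes of cluster a stayed lower in formerly obese mice, and 8 or 9 of the 9 genes of cluster b stayed higher. Of cluster b, Hoxb1, Hoxb2 and Hoxb8 were dim in most tumours. The number of cluster a genes at an unadjusted p under 0.05 then ranged from 1 to 6, with 1 when obese Mouse_101 or formerly obese Mouse_140 was left out and 2 without formerly obese Mouse_152. Of all 22203 probe sets, 944 to 1656 were under that threshold in these fits. The genes of a cluster move together between tumours, so they are not 8 or 9 separate observations. Fibroblast markers were lower beside cluster a: 6 of 6 had a lower mean in formerly obese mice (median -0.67), with list means of 10.4 to 12.5 in formerly obese and 11.4 to 12.5 in obese tumours. The list has 2 of 6 members, Lum (-1.41) and Col1a2 (-0.90), lower at an unadjusted p under 0.05, against 2.91% of all probe sets. Leukocyte markers (5 of 5 lower, median -0.37) and endothelium markers (4 of 5 lower, median -0.49) were lower as well. Medians for colon epithelium, smooth muscle, squamous and anal epithelium, and enteric neurons and glia were 0.16, 0.40, 0.64 and 0.02. The part of these markers in the lower cluster a means was not tested.

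**Figure D4:**
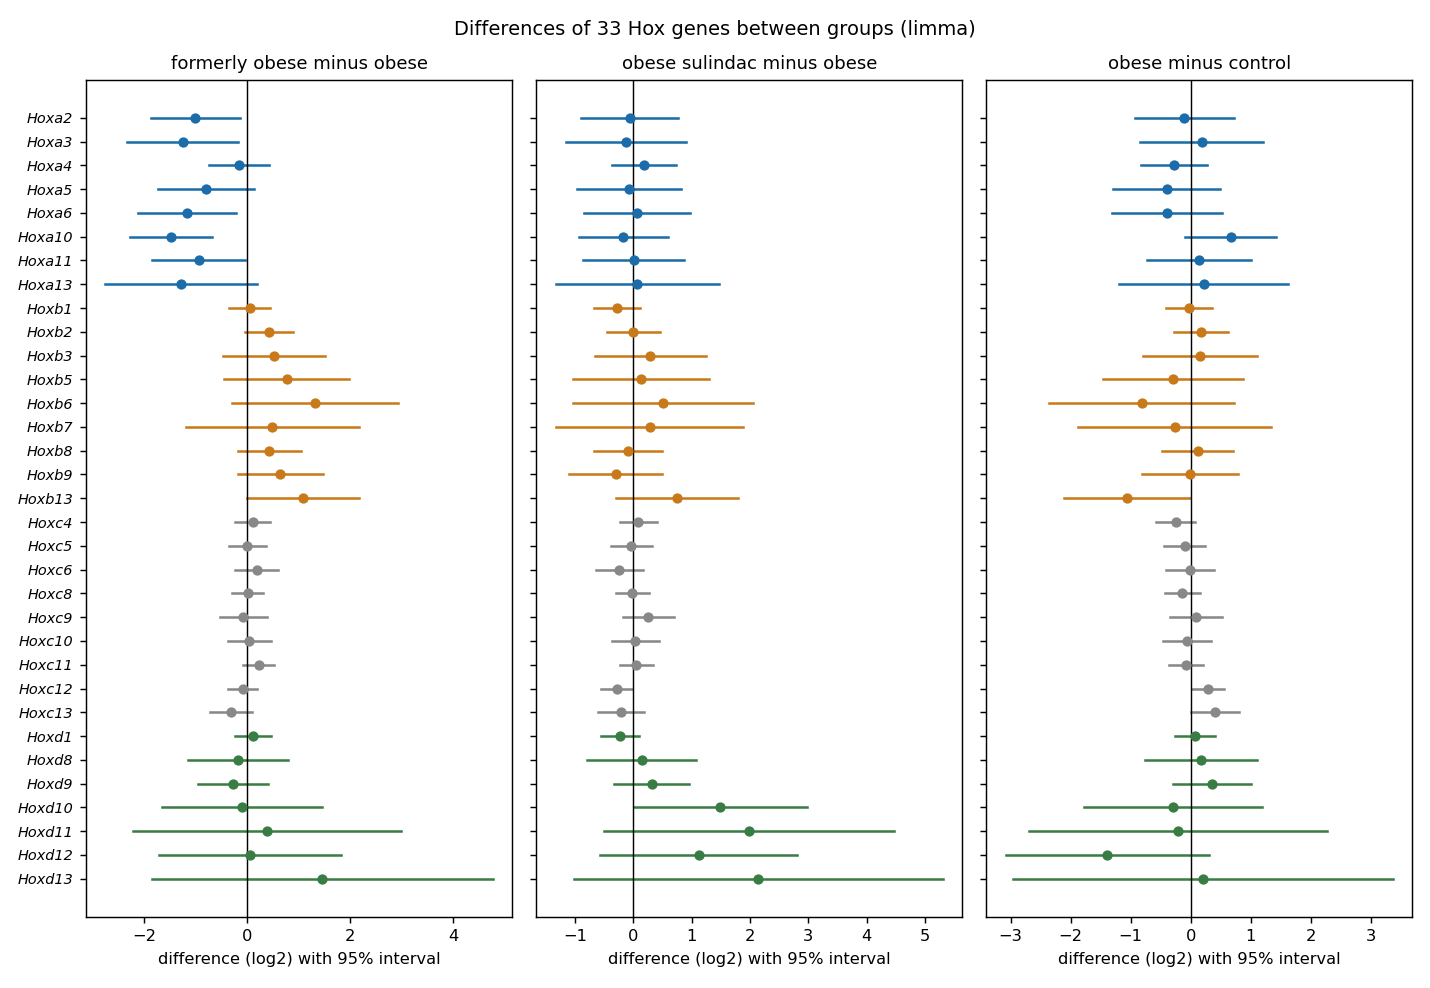
Difference in array level (log2) with its 95% interval from limma for each of the 33 Hox genes (down) in formerly obese minus obese, obese sulindac minus obese and obese minus control mice; colours mark the clusters. In the first panel all 8 genes of cluster a lie left of 0 and all 9 of cluster b right of it. Of cluster b, Hoxb1, Hoxb2 and Hoxb8 were dim in most tumours. Hoxd13 has the widest interval in all 3 panels.

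The comparison of obese sulindac with obese mice asks what the drug goes with in tumours of mice on the high-fat diet. The posterior cluster d genes had higher means with sulindac: Hoxd13 by 2.15, Hoxd11 by 1.99, Hoxd10 by 1.49 and Hoxd12 by 1.12 on the log2 scale. None of the 33 genes passed the test (limma), as 0% of all probe sets did. At an unadjusted p under 0.05 there were 2 Hox genes (6.06%), Hoxd10 higher and the dim Hoxc12 lower, close to the 6.55% of all probe sets. The count was 0 without obese Mouse_101 and control Mouse_20, against 1273 of all 22203 probe sets. Clusters a, b and c had median differences of -0.03, 0.13 and -0.02, and cluster d one of 1.12. Without obese Mouse_101 the median was 0.48 in cluster d and 0.22 in cluster a, with 8 of 8 genes of cluster a higher.

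Hoxd10 ranged from 8.38 to 10.80 in the 6 obese sulindac tumours, with a median of 9.62, against 8.99, 6.89, 9.39, 7.64 and 7.66 in obese mice. Of the sulindac tumours 3 lay above all obese ones, and the groups overlapped. The difference was 1.49 ± 0.71 (SE, limma, 95% interval 0.01 to 2.97, adjusted p = 0.76), and it was 1.18 without obese Mouse_101. Hoxd11 ranged from 10.93 to 13.35 with a median of 12.06, against 11.51, 6.60, 12.65, 10.68 and 8.91, a difference of 1.99 ± 1.20 that was 1.12 without that mouse.

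Hoxd13 ranged from 12.30 to 14.62 with a median of 14.21 in obese sulindac tumours, against 12.86, 5.09, 14.68, 13.67 and 12.54 in obese ones. Its difference of 2.15 ± 1.52 was 0.48 without obese Mouse_101. Hoxb13 averaged 10.19 ± 0.39 (SD, n = 6) with sulindac and 9.44 ± 1.54 (SD, n = 5) without it, and the difference of 0.75 was 0.07 without obese Mouse_101. A single tumour thus carried most of the Hoxd13 and Hoxb13 values.

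Among the lower means, Hoxc12 was at 3.96 to 4.11 with sulindac, with a median of 4.06, against 4.14, 4.41, 4.28, 4.38 and 4.49 in obese mice. The groups did not overlap, as for 0.676% of all probe sets, but every level lay below the dim reference. Hoxb1 and Hoxd1, dim as well, differed by -0.28 ± 0.19 and -0.23 ± 0.16.

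**Figure D5:**
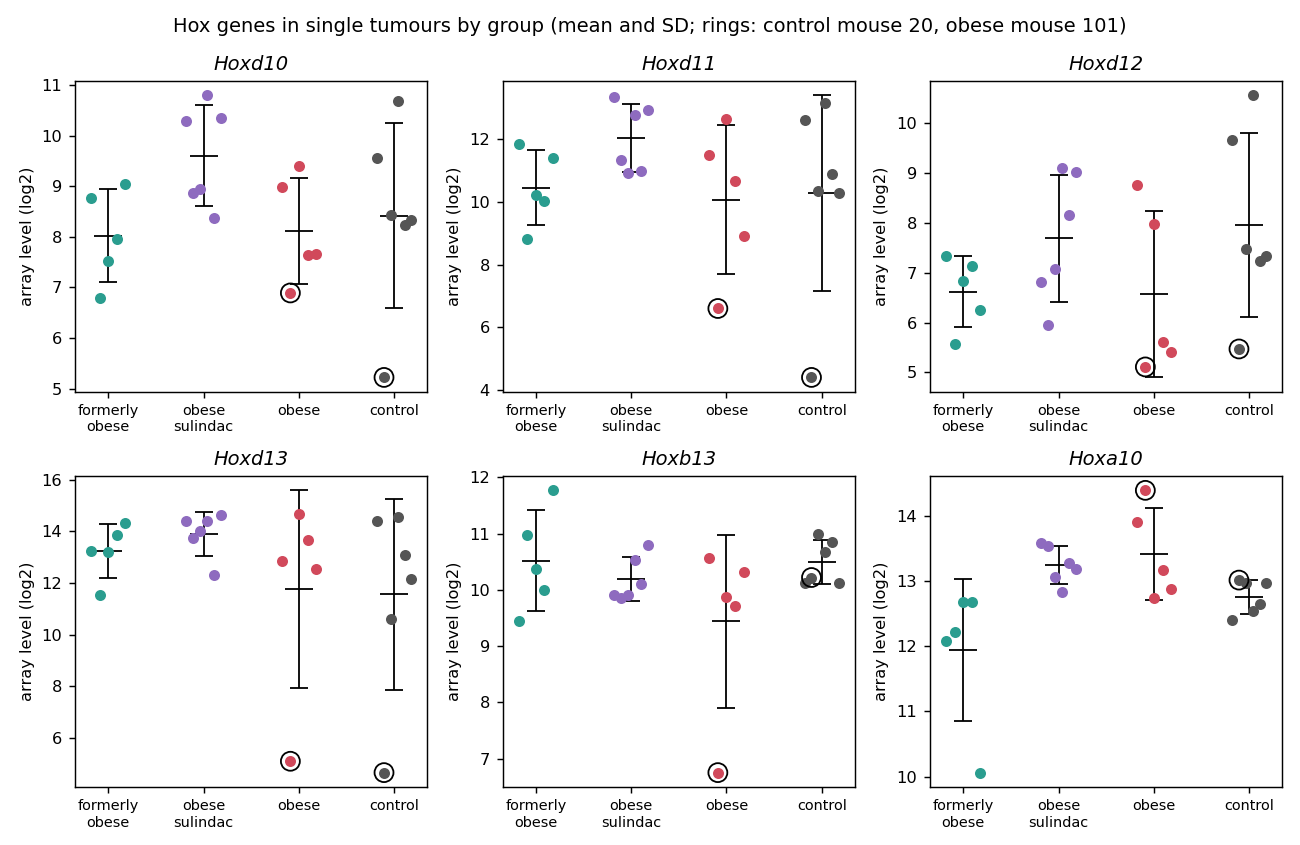
Array level (log2) of Hoxd10, Hoxd11, Hoxd12, Hoxd13, Hoxb13 and Hoxa10 in each tumour, by group, with the group mean and SD; each panel has its own vertical range. Rings mark obese Mouse_101 and control Mouse_20, at 5.09 and 4.65 for Hoxd13, and the 5 formerly obese tumours lie below all 5 obese tumours for Hoxa10.

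Obese and control mice were compared to see what obesity goes with. The Hox genes showed little common direction, with 14 higher and 19 lower means in obese mice and a median difference of -0.03. None of the 33 passed the test (limma), as 0% of all probe sets did, and 3 (9.09%) had an unadjusted p under 0.05, against 4.03% of all probe sets. These were Hoxb13, lower, and the dim Hoxc12 and Hoxc13, higher. The count was 0 without obese Mouse_101 and control Mouse_20, against 747 of all 22203 probe sets.

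Hoxb13 was at 10.56, 6.75, 9.87, 9.71 and 10.31 in obese mice, against 10.13 to 11 with a median of 10.45 in control mice. Of the obese tumours 3 lay below all control ones. The difference was -1.06 ± 0.50 (SE, limma, adjusted p = 0.9998), and -0.39 without obese Mouse_101. Hoxd12 was at 8.75, 5.11, 7.97, 5.61 and 5.40, against 5.47 to 10.56 with a median of 7.40, a difference of -1.39 ± 0.81 that was -0.87 without control Mouse_27. Hoxa10 averaged 13.43 ± 0.70 (SD, n = 5) in obese and 12.77 ± 0.26 (SD, n = 6) in control mice, a difference of 0.66 ± 0.37, and 3 obese tumours lay above all control ones.

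The dim genes of cluster c differed by less. Hoxc12 averaged 4.34 ± 0.13 in obese and 4.05 ± 0.22 in control mice, Hoxc13 4.53 ± 0.39 and 4.13 ± 0.21, and Hoxc4 4.23 ± 0.12 and 4.49 ± 0.24 (SD, n = 5 and n = 6). All of these lay below the dim reference in every tumour. Hoxd13 differed by 0.20 ± 1.52, and the sign of that value turned with the tumour left out: it was 1.87 without obese Mouse_101 and -1.18 without control Mouse_20.

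The remaining comparisons share arrays with those above and are given beside them. In formerly obese against control mice 6 Hox genes (18.2%) had an unadjusted p under 0.05, against 5.54% of all probe sets, namely Hoxa2, Hoxa3, Hoxa5, Hoxa6 and Hoxa10, lower, and Hoxb2, higher. Of all probe sets 2.8% were lower there at that threshold. In formerly obese against obese sulindac mice there were 9 (27.3%), against 6.62%, and in obese sulindac against control mice 1 (3.03%), Hoxd9, against 6.63%. Without obese Mouse_101 and control Mouse_20 these counts were 6, 10 and 0, against 1276, 1455 and 1360 of all 22203 probe sets. No Hox gene passed the test (limma) in any of the 3, as 0% of all probe sets did, and the F test over the 4 groups had a smallest adjusted p of 0.75. The F test gave 3 Hox genes (9.09%) at an unadjusted p under 0.05, against 6% of all probe sets.

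Cluster a was lowest in the formerly obese group for each gene. Hoxa6 averaged 5.82 ± 1.06 in formerly obese (n = 5), 7.04 ± 0.68 in obese sulindac (n = 6), 6.98 ± 0.59 in obese (n = 5) and 7.38 ± 0.74 in control mice (n = 6, SD). Hoxa11 was at 4.70 to 5.02 in all 5 formerly obese tumours, below the dim reference, against 4.98 to 6.54, 4.87 to 7.90 and 5.07 to 6.82 in obese sulindac, obese and control tumours. The formerly obese and control tumours did not overlap for Hoxa11, as for 0.423% of all probe sets. The closest pair was 5.02 and 5.07, and the control tumours at 5.07, Mouse_26 and Mouse_30, were below the dim reference as well. For Hoxa10 the formerly obese tumours lay below all obese sulindac tumours (12.84 to 13.59), and groups that did not overlap there made up 0.567% of all probe sets.

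Genes that act with or upstream of the Hox proteins showed no call in any of the 3 main comparisons. Among 8 measured TALE cofactors, homeodomain proteins of the PBX, MEIS and PKNOX families that bind DNA with HOX proteins, median differences were -0.12 in formerly obese against obese, -0.14 in obese sulindac against obese and 0.08 in obese against control mice. Meis3 differed most, by -0.65 ± 0.24 in obese sulindac against obese mice (limma, adjusted p = 0.70). Among 20 Polycomb and trithorax genes, which keep Hox clusters silent or active through chromatin, the medians were -0.02, 0.01 and -0.12. Jarid2, a partner of Polycomb complex PRC2, averaged 11.38 in formerly obese and 11.25 in obese sulindac mice, each against 10.66 in obese mice. The 17 retinoic acid genes, whose ligand switches on Hox genes in the embryo, had medians of 0.06, 0.15 and -0.09.

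The 6 CDX and ParaHox genes had medians of 0.11, 0.15 and 0.05. The 11 genes beside the clusters had medians of -0.21, 0.03 and 0.03, and Lnpk, which lies beside cluster d, averaged 8.90 in obese sulindac and 8.32 in obese mice (limma, adjusted p = 0.70). The 11 genes of gut regions had medians of 0.41, 0.13 and -0.33. Of these, Sox2, known from stomach and foregut, had one of the widest ranges, 4.94 to 15.19 over the 22 tumours.

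Other cell type markers were set beside these values, in the same order of comparisons, with 0 members called. Medians were 0.16, -0.05 and -0.18 for the 8 colon epithelium markers, -0.67, 0.12 and 0.37 for the 6 fibroblast markers, and 0.40, 0.41 and 0.07 for the 6 of smooth muscle. They were -0.49, -0.14 and 0.26 for the 5 of endothelium, 0.02, -0.16 and 0.14 for the 4 of enteric neurons and glia, -0.37, 0.27 and 0.57 for the 5 of leukocytes, and 0.64, 0.57 and -0.46 for the 5 of squamous and anal epithelium. Their part in the Hox differences was not tested.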

How the data were processed

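The deposited values are array levels on a scale read as log2, for 22203 probe sets on each of 22 Clariom S arrays. They were made with Transcriptome Analysis Console 4.0, per the submitters' processing notes. The log base, probe summarization and normalization were not given in the sources used here. Array medians of 6.67 to 6.83 show a common scale, which makes each level relative to its array. Gene names came from the platform annotation.

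Group means were fitted jointly for the 4 groups, over all arrays and probe sets, with limma 3.58.1 in R 4.3.3. A gene was called where its two-sided p, adjusted by Benjamini-Hochberg for 22203 probe sets, was under 0.05. Intervals are 95% intervals, and the number of arrays limits precision. The fit was tested on simulated data. Permutation tests within groups used 100000 resamples in Python 3.11.15.

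Named genes were, in each main comparison, the 3 Hox genes with the smallest p in each direction, the 6 with the largest SD, those of paralogue number 13, and up to 3 members of a list with the smallest p. For Hoxd13, the 5 most alike and 5 most opposite genes were named. Members and lists were chosen with earlier results of these data known. The relations to Cdx2, and leaving out obese Mouse_101 and control Mouse_20, were chosen after seeing the data, as was any other gene named.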

Additional observations from a re-analysis of the deposited data

Results flagged for a closer look

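Of 68 combinations of a named gene and a group, 7 held a tumour far from the rest of its group by Dixon's test. Many of the genes were named for a large SD or a small p in these same data, and genes move together. The count therefore cannot be set against a rate by chance. Hoxa10 was at 10.06 in formerly obese Mouse_152, against 12.08 to 12.69 in the other formerly obese mice. Hoxb7 was at 6.66 in formerly obese Mouse_140, against 7.82 to 8.14. Hoxd13 was at 12.30 in obese sulindac Mouse_131, against 13.75 to 14.62. Its gap to the next tumour was 0.625 of the range, right at the limit of the test. Hoxc13 was at 5.12 in obese sulindac Mouse_129, against 3.99 to 4.40, all near or below the dim reference. In obese Mouse_101, Hoxd13 was at 5.09, against 12.54 to 14.68, and Hoxb13 at 6.75, against 9.71 to 10.56. Hoxd11 was at 4.40 in control Mouse_20, against 10.28 to 13.16 in the other control mice.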

How the results depend on the processing

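No paired analysis was possible because no 2 groups share a mouse number. The count of Hox genes called stayed at 0 in all 6 comparisons under every alternative run: the arrays of the 2 groups alone and no obese Mouse_101 and control Mouse_20 in all 6, and quantile normalization, a filter on dim probe sets, eBayes with trend and robust, array weights, the mean of a gene's probe sets and each mouse left out in the 3 main ones. The count over all probe sets was 0 to 1 in obese sulindac against obese mice with a mouse left out (1 without obese Mouse_96) and 0 otherwise. Hoxd13 in formerly obese against obese mice was -0.21 without obese Mouse_101, and again -0.21 without it and control Mouse_20, within a range of -0.21 to 2.19 with each mouse left out. In obese against control mice Hoxd13 was -0.014 with array weights and -1.18 to 1.87 with a mouse left out. Hoxa13 was -0.26 to 0.55 in obese sulindac against obese and -0.26 to 0.64 in obese against control mice with a mouse left out. The cause was not tested. At the 99th percentile of the dim reference, 6 Hox genes in place of 9 exceeded it in all 22 tumours. Over the 22 tumours and the alternatives, the median r of pairs of the same cluster was 0.28 to 0.45, and that of different clusters -0.10 to 0.04. Dim signal limits cluster c, Hoxb1 and Hoxd1.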

Other observations

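Hoxa11os, the antisense transcript beside Hoxa11 in cluster a, was chosen after its values were seen and is given without a test. It was at 6.26, 6.65, 6.22, 7.36 and 6.28 in formerly obese mice, 7.52 to 9.69 in obese sulindac mice, 6.25, 10.63, 8.55, 7.31 and 8.92 in obese mice and 6.28 to 11.10 in control mice. Every formerly obese tumour lay below every obese sulindac tumour, the closest pair being 7.36 and 7.52. Groups that did not overlap there made up 0.567% of all probe sets. The formerly obese range overlapped those of the obese and control tumours. The highest levels of all 22 tumours were those of control Mouse_20 and obese Mouse_101, the 2 tumours with almost no Hoxd13 signal. Evx2, the gene at the Hoxd13 end of cluster d, was at 4.27 in obese Mouse_101 and 4.13 in control Mouse_20, and ranged from 3.99 to 6.86 in the other 20. Evx1, at the Hoxa13 end of cluster a, was at 9.47 and 9.14, against 6.83 to 10.90.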
